A study of Zea mays with 18 samples.

Results

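Roots of the maize mutant zmccd8 were compared with roots of the wild type (WT) after growth without nitrogen (0N). The comparison rests on 3 libraries of each genotype out of 18 in the series, and it covers 27530 genes and assembled transcripts that reached 1 FPKM (fragments scaled by transcript length and library depth) in at least 3 of the 18 libraries, from 55661 listed. Of these, 2975 lie on chromosome 3, the chromosome that carries the mutated gene, and 24555 lie elsewhere, and the 2 sets are described apart.

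In zmccd8 the third of the ZmCCD8 exons is broken by a Ds element, a maize transposon, and both genotypes are of the inbred line B73. Plants of both genotypes grew in vermiculite. Under 0N the nitrate in the nutrient solution was replaced by chloride, while control plants (CT) received the full solution and water-stressed plants (WS) were not watered after transplanting. Each library was made from the whole root system of several pooled plants, so the replicates are pools and a p-value measures the spread between pools. The mutant is a single insertion line, and an effect of the lost gene cannot be told apart from an effect of any other difference between this line and B73. Among the 0N libraries, zmccd8 replicate 3 lay nearer to WT than the other mutant libraries did. Of the 433 genes called different between the genotypes under 0N, 418 stayed called without it. Without any other single library 169 to 261 stayed called. The number of fits without one library that kept a call is given for many of the named genes. Since whole roots were sampled, fewer cells of a type and less RNA per cell cannot be told apart either.

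Strigolactones (SLs) are carotenoid-derived hormones that roots make and exude when nutrients are short. In the plastid, the isomerase D27 and the dioxygenases CCD7 and CCD8 act in turn to form carlactone, which cytochrome P450s of the CYP711A group oxidise further. Perception by the D14 esterase leads, in rice, to breakdown of the repressor DWARF 53, and exuded SLs draw arbuscular mycorrhizal fungi to the root.

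The study measured ZmCCD8 and CCD7 by quantitative PCR as well as by sequencing, and the primers are shown because they mark the pair of dioxygenases with which the account starts. ZmCCD8 lies at chr3:202178668-202182189 on the minus strand and CCD7 at chr2:20885045-20888121 on the plus strand of Zm-B73-REFERENCE-NAM-5.0. The fifth sequence is the first 150 bases of a transcript that the authors assembled from the reads (chr1:254645911-254646518, plus strand). It resembles FATTY ACID EXPORT 3 and was read only in the mutant under 0N.
CCD8 For: agaaaggtgtctctgctgct
CCD8 Rev: ctatgggctcgctcacatga
CCD7 For: tccggctcgcgcagattc
CCD7 Rev: ctgcccagaacccatgga
FATTY ACID EXPORT 3-like transcript: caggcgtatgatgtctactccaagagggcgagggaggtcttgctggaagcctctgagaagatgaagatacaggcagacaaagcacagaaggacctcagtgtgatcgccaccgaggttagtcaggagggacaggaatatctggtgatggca

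ZmCCD8 (Zm00001eb153000) had 17.6, 9.47 and 19.2 FPKM in zmccd8 replicates 1 to 3 under 0N, against 70.9, 64.1 and 47.8 FPKM in WT. All 3 mutant libraries lay below all 3 WT libraries, and the log2 difference was −1.95 ± 0.28 (SE, n = 3 each; limma, Benjamini-Hochberg adjusted p = 0.0235). Under CT the gene had 16.6, 5.63 and 8.22 FPKM in zmccd8, against 5.80, 8.76 and 4.16 FPKM in WT, and the groups overlapped. Under WS it had 27.4, 24.2 and 18.1 FPKM in zmccd8, against 10.7, 9.22 and 8.85 FPKM in WT, so that the mutant was higher (log2 difference 1.18, adjusted p = 0.0218). Reads from all exons of the locus count towards this value, including exons outside the insertion, so the level is only a partial check of the genotype labels. Among the genes called on chromosome 3 under 0N, 32 were listed at 0 in all zmccd8 libraries under 0N. Of these, 18 were at 0 in all 9 zmccd8 libraries of the series and above 0 in all 9 WT libraries. In the reverse direction 15 were at 0 in all WT libraries under 0N, and 6 of them kept this split over the series. The 18 and the 6 were picked by that pattern, so their following the labels was fixed by the pick. The 0N call was lost without WT replicate 1, WT replicate 2 or zmccd8 replicate 1, with adjusted p up to 0.125 over the 6 fits that left out one library.

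Several other genes of the SL pathway also fell in zmccd8 under 0N. In the list of carotenoid cleavage and SL genes, 4 of the 10 members tested fell, ZmCCD8 itself among them, and none rose. Of the 4, 2 lie on chromosome 3. The share called lower was 0.890% over all genes tested and 4.87% on chromosome 3. The list median, with ZmCCD8 included, was −0.98 on the log2 scale under 0N, while it was 0.21 under CT and 0.07 under WS. Over all genes tested the median was −0.01 under 0N, with 0.00 in the CT and −0.02 in the WS comparison. The first step is carried out by D27, of which Zm00001eb114610 had 8.93, 7.66 and 10.3 FPKM in zmccd8, against 26.4, 16.8 and 23.8 FPKM in WT. The groups did not overlap, and the gene fell by 1.21 ± 0.20 on the log2 scale (adjusted p = 0.0354, called in 2 of the 6 fits without one library). The other D27 gene, Zm00001eb114700, had 25.2, 14.4 and 26.7 FPKM in zmccd8, against 55.0, 22.8 and 55.8 FPKM in WT, and it did not pass the test (adjusted p = 0.190). WT replicate 2 lay inside the range of the mutant libraries. CCD7 (Zm00001eb074640) had 4.62, 2.95 and 5.02 FPKM in zmccd8, against 10.4, 9.08 and 9.14 FPKM in WT. Its groups were apart with a log2 difference of −1.04, and it narrowly missed the test (adjusted p = 0.0565).

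Downstream of carlactone, the CYP711A1 gene Zm00001eb123090 had 11.8, 11.4 and 15.4 FPKM in zmccd8, against 33.3, 36.5 and 32.4 FPKM in WT. The libraries of each genotype were tightly grouped, and the gene fell by 1.35 ± 0.14 (adjusted p = 0.00623), while under CT and WS the log2 difference was −0.24 in each without a call. It lies on chromosome 3 at 13017850, far from ZmCCD8 on the other arm. In the bin of 10 Mb that holds it, 9 of 152 genes were called, 2 higher and 7 lower. The call of this CYP711A1 gene was lost in 1 of the 6 fits without one library, that without WT replicate 1. It was also lost under the replicate block (adjusted p up to 0.0756 over the alternatives). Another CYP711A1 gene, Zm00001eb384100, had 10.7, 17.3 and 15.9 FPKM in zmccd8, against 21.5, 15.1 and 22.5 FPKM in WT, and these groups overlapped. The D14 genes Zm00001eb007670 and Zm00001eb400720 had log2 differences of −0.25 and −0.28, with neither called.

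A gene named for the repressor DWARF 53, Zm00001eb404750, had 6.62, 7.60 and 6.42 FPKM in zmccd8, against 18.0, 15.6 and 12.8 FPKM in WT. It was lower by a like amount in all 3 conditions, with log2 differences of −1.05 under 0N (adjusted p = 0.0279), −1.03 under CT and −1.09 under WS, and it passed the test in each. Its 0N call held in 2 of the 6 fits without one library, with adjusted p in limma up to 0.143. The SL hydrolase CXE15, known from Arabidopsis to break SLs down, showed the widest gap of the SL genes described here. Its gene Zm00001eb300620 was listed at 0, 0 and 0.258 FPKM in zmccd8, against 8.70, 7.50 and 4.72 FPKM in WT. The groups were far apart, with a log2 difference of −2.85 ± 0.24 (adjusted p = 0.00240), and the call held in all 6 fits without one library.

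In all, 14 of the genes tested bear the name CXE15, a group that was not among the planned families and was formed after values were seen. Every one of the 14 had a negative log2 difference, between −2.85 and −0.09 with a median of −0.47, and Zm00001eb300620 was the 1 that passed. It stands in a cluster of these genes on chromosome 7, in which Zm00001eb300670 (chr7:7404934-7406210) was the most abundant member. Zm00001eb300670 averaged 54.4 FPKM in zmccd8 and 112 FPKM in WT, and its log2 difference of −1.08 did not pass (adjusted p = 0.0761). Such close copies share sequence, and how reads that match more than one of them were divided bears on each member's value.

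A further 3 genes, chosen after their values were seen, stand beside this pathway. NODULATION SIGNALING PATHWAY 1 (Zm00001eb392980), a GRAS factor that legumes and rice need for SL production and root symbiosis, had 1.18, 1.64 and 1.53 FPKM in zmccd8, against 6.42, 4.67 and 6.38 FPKM in WT. The groups did not overlap, and it fell by 1.47 (adjusted p = 0.0147). All 4 genes of the NODULATION SIGNALING PATHWAY name had non-overlapping groups with the mutant lower (16.7% over all genes tested), from −1.47 to −1.03, and 1 was called. The receptor-like kinase NFP (Zm00001eb399560), a receptor for Nod factors in legumes, had 3.35, 3.96 and 5.42 FPKM in zmccd8, against 11.49, 9.70 and 9.51 FPKM in WT. It fell by 1.11 (adjusted p = 0.0428), with groups apart. Geranylgeranyl pyrophosphate synthase (Zm00001eb325560), which makes the precursor of carotenoids, had 2.64, 2.57 and 2.44 FPKM in zmccd8, against 7.05, 6.91 and 5.39 FPKM in WT, a fall of 1.06 with groups apart (adjusted p = 0.0304). These 3 calls held in 3, 1 and 1 of the 6 fits without one library, and their log2 differences lay between −0.20 and 0.14 under CT and between 0.01 and 0.17 under WS.

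**Figure D1:**
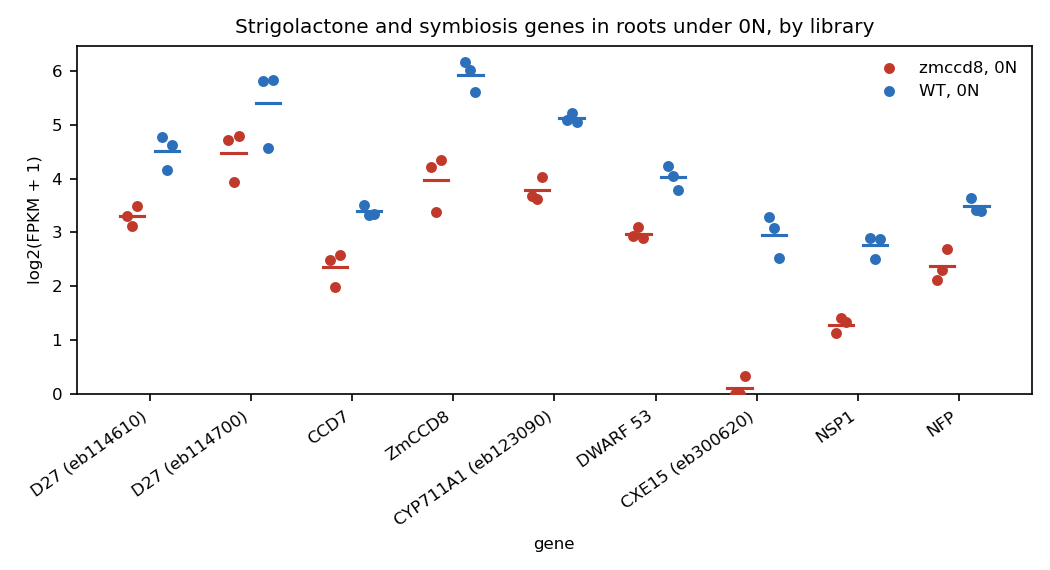
Expression of SL pathway and symbiosis genes in roots under 0N, as log2(FPKM + 1) on the vertical axis, with a red point for each zmccd8 library and a blue point for each WT library (n = 3 each) and a line at the group mean. ZmCCD8 sits at 9.47 to 19.2 FPKM in zmccd8 and at 47.8 to 70.9 FPKM in WT, CXE15 Zm00001eb300620 is at or near 0 in zmccd8, and only D27 Zm00001eb114700 has overlapping groups.

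Across all genes tested, 433 (1.57%) passed in zmccd8 against WT under 0N, at an adjusted p of at most 0.05 and an absolute log2 difference of at least 1. Of these, 188 (0.683%) were higher in the mutant and 245 (0.890%) lower. The 0N libraries held 31365659 to 35998313 reads assigned to features, as rebuilt from the deposited FPKM values. For 15.7% of the genes tested all mutant libraries lay above all WT libraries, and for 16.7% they all lay below. All 433 called genes were among them.

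The libraries did not stand equally far apart. Over all genes tested, zmccd8 replicate 3 correlated with the WT libraries at Pearson's r of 0.962, 0.947 and 0.961 on the log2 scale, against 0.971 and 0.952 with the other mutant libraries. Replicate 2 of zmccd8 was the farthest from WT, with r of 0.899, 0.879 and 0.927. Without zmccd8 replicate 3 the count of calls was 984, and without any one of the other 5 libraries it lay between 171 (without WT replicate 1) and 284 (without zmccd8 replicate 2). It was 214 without WT replicate 2, 224 without zmccd8 replicate 1 and 272 without WT replicate 3. Calls that held in all 6 of these fits numbered 153 of 433, namely 80 of 186 on chromosome 3, 63 of 147 of the higher genes outside it and 10 of 100 of the lower genes outside it.

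Chromosome 3 carried a larger share of the calls than the rest of the genome. On it 186 genes (6.25%) were called, 41 higher (1.38%) and 145 lower (4.87%). Outside it 247 (1.01%) were called, 147 higher (0.599%) and 100 lower (0.407%), and no other chromosome had more than 1.46% of its genes called. Most of the chromosome 3 calls lay between 140 and 210 Mb, around ZmCCD8, where 165 of 1129 genes (14.6%) passed, 36 higher and 129 lower. These edges match the bins of 10 Mb where the 0N calls stop on either side. The contrast with the rest of the chromosome thus depends in part on how the edges were drawn. On the rest of the chromosome 21 of 1846 genes (1.14%) passed. Of these, 9 lay among the 152 genes between 10 and 20 Mb, 2 higher and 7 lower. Within the stretch around ZmCCD8, 128 genes were called under CT and 126 under WS, against 4 and 10 on the rest of the chromosome. Past 210 Mb none of the 193 and 223 genes of the next 2 bins of 10 Mb was called under 0N.

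**Figure D2:**
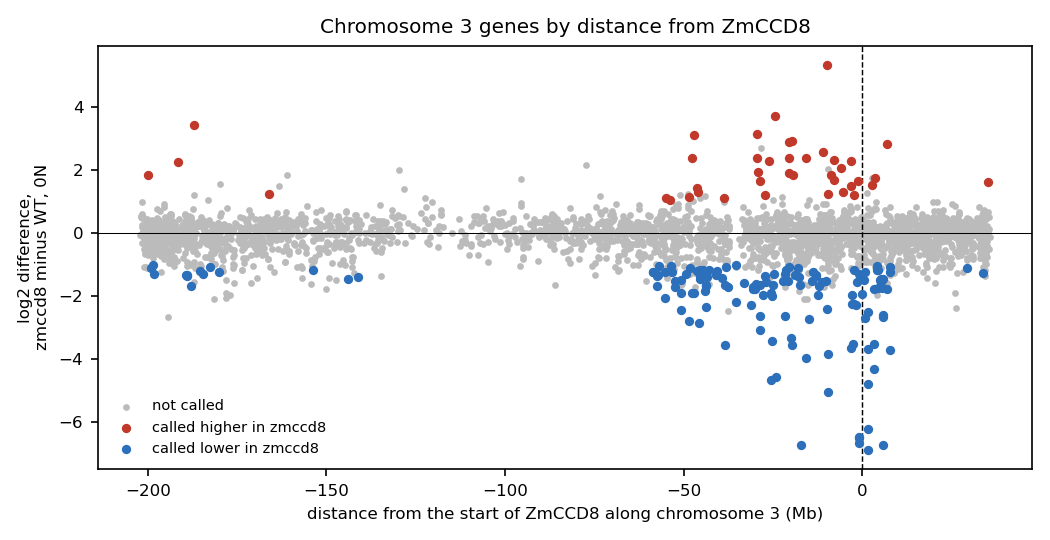
Log2 difference between zmccd8 and WT under 0N (vertical axis) for the 2975 genes tested on chromosome 3, by distance in Mb from the start of ZmCCD8 (horizontal axis, dashed line at 0), with genes called higher in zmccd8 in red, genes called lower in blue and other genes in grey. The 165 calls around ZmCCD8 end shortly after it on the right, and 129 of them are lower in the mutant.

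Several genes near ZmCCD8 were read in 1 genotype and almost absent from the other. Long chain acyl-CoA synthetase 9 (Zm00001eb153400), which activates fatty acids at the chloroplast envelope, was listed at 0, 0 and 0.131 FPKM in zmccd8, against 117, 111 and 143 FPKM in WT. The gap was of the same size in each condition, with log2 differences of −6.89 under 0N (adjusted p = 1.84e-05), −6.86 under CT and −6.90 under WS. Cold-responsive protein kinase 1 (Zm00001eb154780), which in Arabidopsis acts in the response to cold, had 0, 0.187 and 0.0541 FPKM in zmccd8, against 107, 102 and 134 FPKM in WT. Its log2 difference was −6.73 (adjusted p = 1.84e-05) with groups far apart, although it overlaps another gene on the same strand and reads could belong to either. HOX10 (Zm00001eb145820), a homeobox-leucine zipper factor of the class that patterns vascular tissue, was listed at 0 in all 3 zmccd8 libraries, against 30.0, 24.4 and 20.3 FPKM in WT. Set against a floor of 3 reads per library in zmccd8, the WT mean puts the gene at least 333-fold lower in zmccd8.

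An anthocyanidin 5,3-O-glucosyltransferase gene (Zm00001eb154000), which adds sugars to anthocyanidins, had 0.126, 0.0865 and 0.135 FPKM in zmccd8, against 23.0, 15.0 and 27.4 FPKM in WT. It fell by 4.31 on the log2 scale with groups apart (adjusted p = 0.000418), and it too overlaps another gene on its strand. A nitrate reductase gene (Zm00001eb152470), whose product turns nitrate into nitrite, was listed at 0 in all 3 zmccd8 libraries, against 4.04, 4.08 and 3.66 FPKM in WT, and its mean was at least 50.5-fold lower in the mutant. The same gene was called lower under CT (−2.54) and WS (−2.27), so its level separated the genotypes with and without nitrogen. Of the 10 nitrate and nitrite reductase genes tested it was the 1 called.

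The lowest assembled transcripts also lay in this stretch and have no protein name. The one with start 185126207 had 0, 0.124 and 0 FPKM in zmccd8, against 108, 84.7 and 141 FPKM in WT, and the one with start 192723765 had 0.176, 0 and 0.0335 FPKM in zmccd8, against 39.3, 28.0 and 38.5 FPKM in WT. Their groups were far apart, with falls of 6.73 (adjusted p = 3.4e-05) and 5.07 (adjusted p = 9.02e-05).

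In the other direction on the chromosome, signal recognition particle receptor subunit alpha (Zm00001eb146090), which docks ribosomes at the endoplasmic reticulum, had 11.3, 14.8 and 10.9 FPKM in zmccd8 and was listed at 0 in all 3 WT libraries. That mean was at least 63.3-fold higher in zmccd8. BUD31 homolog 1 (Zm00001eb147380), a splicing protein whose gene overlaps another on its strand, had 29.8, 26.2 and 27.9 FPKM in zmccd8, against 3.56, 1.55 and 3.78 FPKM in WT. The groups were apart and the gene rose by 2.92 (adjusted p = 0.00287). A phosphoglycerate mutase gene near the start of the chromosome (Zm00001eb123700), a glycolytic enzyme of the kind that needs no bisphosphoglycerate, had 12.6, 8.91 and 8.46 FPKM in zmccd8 and was listed at 0 in WT, at least 111-fold higher in zmccd8.

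Outside chromosome 3, the highest genes in zmccd8 were also nearly absent from WT. Succinate dehydrogenase flavoprotein subunit 1 (Zm00001eb018220, chromosome 1), a subunit of respiratory complex II, had 70.7, 76.0 and 58.1 FPKM in zmccd8 and was listed at 0 in all 3 WT libraries. Its mean was at least 1205-fold higher in zmccd8, and the gene was also called higher under CT and WS. The phosphoglycerate mutase gene Zm00001eb281930 (chromosome 6) had 70.8, 57.0 and 52.5 FPKM in zmccd8, against 0.153, 0.101 and 0.152 FPKM in WT. It rose by 5.74 ± 0.16 (adjusted p = 2.62e-05) with groups far apart. Of the 8 genes of this enzyme name that were tested, 2 rose and the median was 0.10.

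The remaining high genes were transcripts assembled from the reads, which have no place in the reference gene set and take their names from the protein they resemble. A transcript on chromosome 2 (start 130084691), which resembles cysteine-rich receptor-like kinase 17, had 30.6, 34.7 and 17.5 FPKM in zmccd8 and was listed at 0 in WT, at least 298-fold higher in zmccd8. The transcript shown by its first bases above, which resembles FATTY ACID EXPORT 3 of the chloroplast envelope, had 13.8, 15.1 and 22.7 FPKM in zmccd8 and was listed at 0 in WT, at least 89.2-fold higher. A transcript on chromosome 7 that resembles the receptor-like kinase SD1-6 (start 76387552) was at least 145-fold higher in zmccd8, and one with no protein name on the same chromosome (start 104878129) at least 265-fold higher. On chromosome 9 a transcript that resembles transcription elongation factor 1 (start 20817519) had 54.3, 65.1 and 36.8 FPKM in zmccd8, against 1.37, 1.46 and 1.74 FPKM in WT. Its groups were apart, and it rose by 4.36 (adjusted p = 0.000318).

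Assembled transcripts made up most of the higher genes outside chromosome 3, 113 of 147, while annotated genes made up most of the lower ones, 93 of 100. Called were 118 of 2777 assembled transcripts tested there (4.25%) and 125 of 21296 annotated genes (0.587%). The reference gene set is that of B73, the WT line, and a transcript could pass the filter through the zmccd8 libraries alone. The part of this listing and filtering in the split by direction was not tested. Of the 118 assembled transcripts called there, 79 were listed at 0 in all 3 WT libraries under 0N and 43 in all 9 WT libraries of the series. Among the 125 annotated genes called there, 6 were listed at 0 in the 3 WT libraries and 1 in the 3 mutant libraries. Calls in the other conditions were counted in the same way, and 54 of the 118 assembled transcripts (45.8%) were also called under CT in the same direction, which is 84.4% of those called under CT, and 56 (47.5%) under WS, 83.6% of those called under WS. Of the 129 other genes called outside chromosome 3, 11 (8.53%) were also called under CT, which is 32.4% of the CT calls of this kind, and 10 (7.75%) under WS, 22.2% of the WS calls. The comparisons under 0N, CT and WS have no library in common, and the difference in these shares was not tested.

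**Figure D3:**
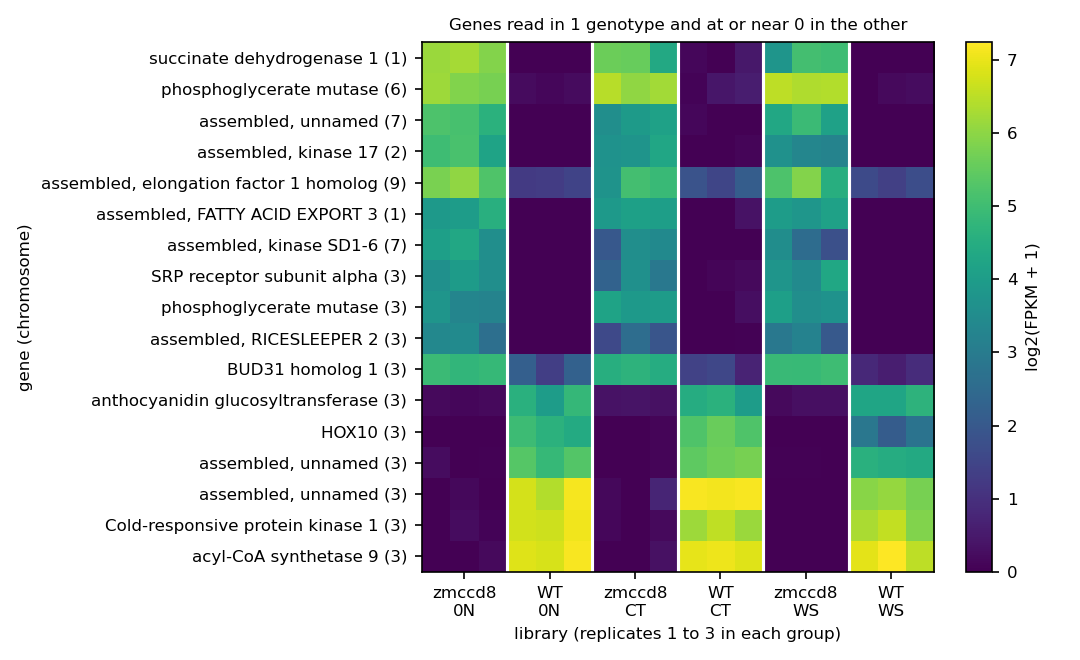
Heat map of genes read in 1 genotype and at or near 0 in the other, with log2(FPKM + 1) as colour, a row for each gene (chromosome in brackets) and a column for each of the 18 libraries, in blocks of 3 replicates with zmccd8 left of WT under 0N, CT and WS. Rows from succinate dehydrogenase 1 to BUD31 homolog 1 are brighter in the zmccd8 blocks, and rows from the anthocyanidin glucosyltransferase to acyl-CoA synthetase 9 are brighter in the WT blocks.

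Among annotated genes outside chromosome 3, those lower in zmccd8 under 0N were mostly not called in the other conditions. Of 95 lower genes outside the assembled set, 3 were also called lower under CT, 2 under WS and 91 under neither. In 71 of the 95, zmccd8 replicate 3 was the mutant library nearest to WT. Over all genes tested, 230 (0.835%) were called under CT and 248 (0.901%) under WS, so fewer calls were made there in both. The difference between the 0N and the CT contrast was tested by the interaction term in limma, and 0 genes (0.00%) passed it, with 4804 at an unadjusted p under 0.05. It gave 134 genes without zmccd8 0N replicate 3 and 5 without zmccd8 CT replicate 2, and the fit over all 18 libraries gave 19. For ZmCCD8 the interaction was −2.50 on the log2 scale (adjusted p = 0.161).

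The lowest of these genes was RADIALIS-like 3 (Zm00001eb296840), a small single-MYB protein. It had 1.95, 2.14 and 2.06 FPKM in zmccd8, against 27.9, 20.0 and 24.5 FPKM in WT, with the libraries of each genotype close together. It fell by 3.03 ± 0.16 (adjusted p = 0.000361), against log2 differences of −0.70 under CT and −0.59 under WS that did not pass. Ferredoxin-NADP reductase, leaf isozyme 1 (Zm00001eb405610), which passes electrons from photosystem I to NADP, was listed at 0 in all 3 zmccd8 libraries, against 7.30, 6.66 and 3.14 FPKM in WT. That is at least 27.8-fold lower in zmccd8, and the gene was also called lower under CT. The list of photosystem and light-harvesting genes, read here as a marker of leaf tissue, summed to 62.2, 119.6 and 92.4 FPKM in zmccd8 and to 76.2, 51.5 and 75.8 FPKM in WT. Its groups overlapped, with 1 of 29 genes called lower, PSB28 (Zm00001eb141870) on chromosome 3, and its median was 0.19 under 0N, −1.01 under CT and −0.51 under WS.

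Among transporters, NPF7.3 (Zm00001eb251130), which in Arabidopsis loads nitrate into the xylem, had 0.455, 0.594 and 0.906 FPKM in zmccd8, against 4.87, 7.85 and 6.85 FPKM in WT. The groups did not overlap and it fell by 2.18 ± 0.21 (adjusted p = 0.00502), while it stood at 0.23 under CT and −0.92 under WS without a call. It overlaps another gene on its strand, and its call held in all 6 fits without one library. Of 51 NPF genes tested it was the 1 called, and the median of the family was −0.29. The sugar carriers HEX6 (Zm00001eb000240, overlapping another gene) and SWEET3 (Zm00001eb119760, chromosome 3) fell by 1.55 and 1.12, as 2 of 44 sugar transporters tested. The amino acid carriers amino acid permease 7 (Zm00001eb253110) and cationic amino acid transporter 5 (Zm00001eb120240, chromosome 3) fell by 1.04 and 1.29, as 2 of 60. Amino acid permease 7 was the most abundant of these, at 44.5, 57.3 and 65.1 FPKM in zmccd8 and 121, 110.1 and 112 FPKM in WT. None of these 4 calls held in more than 2 of the 6 fits without one library. Beside these transporter counts, the share called lower was 0.890% over all genes tested and 4.87% on chromosome 3.

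Ethylene-responsive factors (ERFs) are transcription factors that act downstream of ethylene and of dehydration. Of 130 tested, 5 fell and none rose under 0N, against 0.890% called lower over all genes tested, and 110 had a negative log2 difference. Their median was −0.44 under 0N, against 0.04 under CT and −0.12 under WS. DREB1A (Zm00001eb318910), known for cold and drought responses, had 0.711, 0.663 and 3.65 FPKM in zmccd8, against 11.9, 12.9 and 9.92 FPKM in WT. Replicate 3 was well above the other mutant libraries but still below every WT library, and the gene fell by 2.40 ± 0.41 (adjusted p = 0.0428). Both ERF7 genes behaved alike in this respect. Zm00001eb413930 had 1.13, 1.52 and 3.06 FPKM in zmccd8, against 16.1, 17.1 and 9.35 FPKM in WT, a fall of 2.40 (adjusted p = 0.0184). Zm00001eb171050 had 1.84, 2.70 and 7.79 FPKM in zmccd8, against 24.4, 19.9 and 23.3 FPKM in WT, a fall of 2.38 (adjusted p = 0.0421). In each of them the groups were apart and zmccd8 replicate 3 was the highest of the mutant libraries.

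ERF4 (Zm00001eb352580) was the most abundant of the called ERFs, with 14.6, 13.4 and 26.98 FPKM in zmccd8, against 57.3, 63.7 and 53.2 FPKM in WT. It fell by 1.67 (adjusted p = 0.0296), and ERF3 (Zm00001eb430640), named here after its values were seen, fell by 1.47 (adjusted p = 0.0450). Each of the 5 calls held in only 1 or 2 of the 6 fits without one library, one of them always the fit without zmccd8 replicate 3. Under CT the log2 difference was −1.26 for DREB1A, −1.22 and −1.09 for the ERF7 genes, −0.64 for ERF4 and 0.16 for ERF3, and under WS the 5 lay between −0.33 and 0.47, with none called in either condition. The difference between the 0N and the CT contrast did not pass for any of them.

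Calmodulins and calmodulin-like proteins bind calcium and pass its signal to other proteins. Of 62 tested, 5 fell and none rose, 2 of them on chromosome 3. The share called lower was 0.890% over all genes tested and 4.87% on chromosome 3. The family median was −0.30, beside −0.08 under CT and 0.02 under WS. The calmodulin gene Zm00001eb150260, which lies in the stretch around ZmCCD8, had 19.2, 27.8 and 34.3 FPKM in zmccd8, against 165, 112 and 159 FPKM in WT. The groups were far apart, with a fall of 2.40 ± 0.24 (adjusted p = 0.00554), and it was called lower under CT and WS and in all 6 fits without one library. The other 4 were called under 0N alone, with log2 differences between −0.79 and −0.61 under CT and between −0.43 and 0.08 under WS. KIC (Zm00001eb225410), a small calcium-binding protein that in Arabidopsis acts on a kinesin, had 14.04, 14.7 and 33.7 FPKM in zmccd8, against 87.5, 117 and 73.2 FPKM in WT. It fell by 2.19 (adjusted p = 0.0345), with replicate 3 again the mutant library nearest to WT.

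CML45 (Zm00001eb099610) had 14.9, 11.4 and 24.5 FPKM in zmccd8, against 59.0, 71.8 and 53.1 FPKM in WT, a fall of 1.85 (adjusted p = 0.0248). CML31 (Zm00001eb140600), the other one on chromosome 3, fell by 1.71 (adjusted p = 0.0353). CML9 (Zm00001eb352340), named here after its values were seen, fell by 1.39 (adjusted p = 0.0180). The groups of all 5 were apart, while the calls of KIC, CML45, CML31 and CML9 held in 1 of the 6 fits without one library each.

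**Figure D4:**
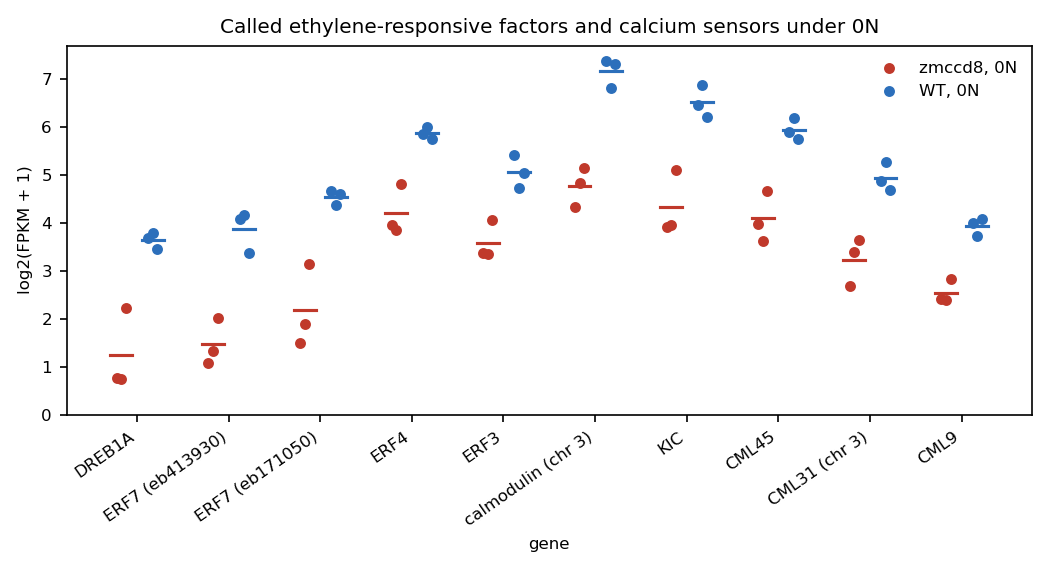
Called ERFs and calcium sensors in roots under 0N, as log2(FPKM + 1) on the vertical axis, with a red point for each zmccd8 library and a blue point for each WT library (n = 3 each) and a line at the group mean. Calmodulin sits at 19.2 to 34.3 FPKM in zmccd8 and 112 to 165 FPKM in WT, and the zmccd8 point nearest to WT in DREB1A, at 3.65 FPKM, is replicate 3.

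Cytochrome P450s oxidise hormones, sterols and defence compounds. Of 201 tested genes with the P450 domain in the deposited annotation, 4 fell and none rose, against 0.890% called lower over all genes tested. The median was −0.43 under 0N, 0.15 under CT and −0.04 under WS. Zm00001eb123090, the CYP711A1 gene, which has no domain entry there, is counted with the SL genes and fell as well. CYP716A1 (Zm00001eb225960), of a group that oxidises triterpenes, had 1.04, 1.75 and 1.35 FPKM in zmccd8, against 11.99, 7.81 and 10.1 FPKM in WT. It fell by 2.19 ± 0.21 (adjusted p = 0.00450), with groups apart, and held in all 6 fits without one library. Obtusifoliol 14-alpha demethylase (Zm00001eb349320), a step of sterol synthesis, had 8.17, 6.23 and 8.22 FPKM in zmccd8, against 25.3, 19.2 and 19.8 FPKM in WT. It fell by 1.39 (adjusted p = 0.0115) and held in 5 of the 6 fits. The benzoxazinoid enzyme 3-hydroxyindolin-2-one monooxygenase (Zm00001eb165560) and the flavonoid hydroxylase CYP75B137 (Zm00001eb123110, chromosome 3) fell by 1.89 and 1.38, with adjusted p of 0.0443 and 0.0242. These calls held in only 1 and 2 of the 6 fits.

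Other transcription regulators outside the ERFs showed few calls each. FCS-like zinc finger proteins, small plant proteins that bind the energy-sensing kinase SnRK1, were picked after their values were seen. Of 32 tested, 3 fell, against 0.890% called lower over all genes tested. In this group 28 had a negative difference and the median was −0.64. FCS-like zinc finger 6 (Zm00001eb042220) had 27.2, 36.4 and 38.2 FPKM in zmccd8, against 94.9, 84.1 and 128 FPKM in WT, and fell by 1.56 with groups apart (adjusted p = 0.0153). The FCS-like zinc finger 2 genes Zm00001eb072690 and Zm00001eb187540 fell by 1.23 and 1.05. These 3 calls held in 4, 1 and 1 of the 6 fits without one library. Of 91 NAC factors 2 fell, both named NAC4. NAC4 Zm00001eb080700 had 7.63, 11.3 and 13.8 FPKM in zmccd8, against 38.5, 34.9 and 38.5 FPKM in WT, a fall of 1.72 with groups apart (adjusted p = 0.0110). Its call held in 3 of the 6 fits. Of 102 WRKY factors 2 fell, both on chromosome 3, where 4.87% of the genes tested were called lower. Of 108 MYB factors 1 fell, MYB30 (Zm00001eb247570, −1.65), and its call held in 1 of the 6 fits.

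Pectin-modifying enzymes, which loosen or set the pectin of the wall, had 3 calls among 77 tested, all of them on chromosome 3 around ZmCCD8. The share called in either direction was 1.57% over all genes tested and 6.25% on chromosome 3. Pectin acetylesterase 5 (Zm00001eb145070) had 2.72, 1.42 and 1.91 FPKM in zmccd8, against 19.0, 13.9 and 20.6 FPKM in WT, and fell by 2.65 with groups apart (adjusted p = 0.00262). A pectinesterase (Zm00001eb145790) had 6.72, 6.88 and 9.62 FPKM in zmccd8, against 33.0, 35.3 and 26.7 FPKM in WT, and fell by 1.91 with groups apart (adjusted p = 0.00369). A polygalacturonase (Zm00001eb145110), which cuts pectin chains, went the other way, with 2.05, 4.72 and 3.94 FPKM in zmccd8, against 0.501, 0.336 and 0.355 FPKM in WT. It rose by 1.66 (adjusted p = 0.0292), and the groups did not overlap. The 3 calls held in 6, 6 and 2 of the 6 fits without one library.

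F-box proteins, which select targets for breakdown, likewise had their 3 calls on chromosome 3, where 6.25% of the genes tested were called. At1g67190-like Zm00001eb147200 had 28.4, 40.4 and 21.8 FPKM in zmccd8, against 6.40, 6.78 and 8.16 FPKM in WT, and rose by 1.90 with groups apart (adjusted p = 0.0121). At2g41170-like Zm00001eb150400 rose by 1.24 (adjusted p = 0.00959), and a kelch-repeat member (Zm00001eb146000) fell by 1.299 (adjusted p = 0.0480). The 3 calls held in 3, 5 and 1 of the 6 fits without one library. The median of the 171 F-box genes tested was −0.03, next to −0.01 over all genes.

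Proteins that derive from mobile elements were the family with the highest median, 0.29 under 0N, against 0.03 under CT and −0.07 under WS. Of 152 tested, 6 rose and 4 fell, 128 had a positive difference, and 54 had non-overlapping groups with the mutant higher, against 11 with the mutant lower. Over all genes tested, 0.683% rose and 0.890% fell, and 15.7% and 16.7% had such groups with the mutant higher and lower. An assembled transcript that resembles the AC transposase (chromosome 3, start 199582360) was listed at 0, 0.137 and 0 FPKM in zmccd8, against 9.87, 11.8 and 11.2 FPKM in WT. It fell by 3.52 (adjusted p = 0.000207) with groups apart. A pair of transcripts side by side on chromosome 3 (starts 172837400 and 172836187) resemble RICESLEEPER proteins, which descend from transposases. They were listed at 0 in all WT libraries under 0N and were at least 158-fold and 57.2-fold higher in zmccd8. A transcript of the same kind on chromosome 5 (start 182342104) was at least 21.1-fold higher. The family's summed level was 931, 1105 and 757 FPKM in zmccd8, against 647, 629 and 730.0 FPKM in WT, so zmccd8 replicate 3 lay closest to WT here too.

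Receptor and immune families had few rises. G-type lectin receptor kinases had 2 higher members of 55 and cysteine-rich receptor-like kinases 2 of 49, with family medians of −0.17 and 0.11. The share called higher was 0.683% over all genes tested and 1.38% on chromosome 3. All higher members of these 2 families were assembled transcripts outside chromosome 3, a kind of which 4.25% were called there in either direction. Such transcripts could pass the filter through the zmccd8 libraries alone. Among the lectin kinases, a transcript on chromosome 9 (start 3930874) had 12.96, 14.2 and 10.9 FPKM in zmccd8, against 0.0408, 0 and 0 FPKM in WT, and rose by 3.75 with groups apart (adjusted p = 0.000176). Of 79 NLR disease resistance genes, which encode intracellular immune receptors, 1 rose. That gene (Zm00001eb150750, chromosome 3) had 3.78, 3.70 and 2.39 FPKM in zmccd8, against 0.207, 0.217 and 0.126 FPKM in WT, and rose by 1.84 with groups apart (adjusted p = 0.00487). A respiratory burst oxidase gene on chromosome 5 (Zm00001eb249480), of the family that makes superoxide, had 4.10, 3.93 and 1.60 FPKM in zmccd8 and was listed at 0 in WT, at least 11-fold higher in zmccd8. Its call held in 1 of the 6 fits without one library.

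Across the 111 families examined, the log2 medians leaned below 0 under 0N. The median was negative in 95 families under 0N, against 37 under CT and 73 under WS, and it was −0.5 or lower in 23 families under 0N, against 1 under CT and 1 under WS. No family had a median of 0.5 or higher. At least 1 call was made in 48 families, a lower one in 38 and a higher one in 16. Over all genes tested 17.3% had a log2 difference of −0.5 or lower and 7.94% one of 0.5 or higher. In limma, 7383 of the 27530 stood at an unadjusted p under 0.05. The family counts at this limit given below are to be read beside that share.

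Several families of the cell wall were among those with the lowest medians, and almost none of their members passed the test. Lipoxygenases, which oxidise fatty acids, and pathogenesis-related proteins lay about as low, with medians of −0.80 over 14 genes and −0.77 over 16 genes, 0 called in either and 6 and 7 at an unadjusted p under 0.05. Other wall families lay higher, with medians of −0.30 for cellulose synthases and −0.34 for the pectin-modifying enzymes. Fasciclin-like arabinogalactan proteins, wall glycoproteins of expanding and thickening cells, had a median of −0.996 over 18 genes, from −1.60 to −0.30, with 0 called by limma and 10 at an unadjusted p under 0.05. Their median was 0.18 under CT and 0.24 under WS. Summed over the family, they reached 189, 91.3 and 290.5 FPKM in zmccd8, against 417, 591 and 285 FPKM in WT. Replicate 3 of zmccd8 thus stood just above WT replicate 3, and the groups overlapped. The member with the largest difference, fasciclin-like arabinogalactan protein 7 (Zm00001eb316460), had 6.97, 2.30 and 9.60 FPKM in zmccd8, against 19.1, 23.3 and 14.9 FPKM in WT. Its groups were apart, with a log2 difference of −1.60 and an adjusted p of 0.101.

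Extensins and proline-rich proteins, structural proteins of the wall, had a median of −0.98 over 25 genes with 0 called and 10 at an unadjusted p under 0.05, and summed to 335, 61.1 and 280.2 FPKM in zmccd8, against 550.1, 707 and 396 FPKM in WT. Their sums did not overlap, and zmccd8 replicate 2 was the lowest by far. Xyloglucan endotransglucosylases, which cut and rejoin hemicellulose, had a median of −0.87 over 24 genes with 0 called and 10 at an unadjusted p under 0.05. XTH22 (Zm00001eb341630), the member with the largest difference, had 1.15, 0.244 and 1.69 FPKM in zmccd8, against 6.77, 45.3 and 4.38 FPKM in WT, and WT replicate 2 was far above the other WT libraries (log2 difference −2.69, adjusted p = 0.114). Expansins, which loosen walls, had a median of −0.49 over 58 genes with 0 called and 9 at an unadjusted p under 0.05. Their sums were 368, 231 and 455 FPKM in zmccd8, against 587, 805 and 425 FPKM in WT, and overlapped.

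Enzymes of lignin and of wall crosslinking showed like medians. Dirigent proteins, which steer the coupling of phenolics, had a median of −0.85 over 20 genes with 0 called, and laccases, which polymerise lignin in the xylem, a median of −0.74 over 21 genes with 0 called. At an unadjusted p under 0.05 stood 9 and 8 of them. Laccases summed to 132, 106 and 196 FPKM in zmccd8, against 305, 423 and 191 FPKM in WT. Here zmccd8 replicate 3 again stood just above WT replicate 3. Class III peroxidases had a median of −0.80 over 114 genes, of which 107 had a negative difference. Among them 35 had groups apart with the mutant lower (16.7% over all genes tested) and 1 was called. That one, Peroxidase 5 (Zm00001eb393680, named here after its values were seen), had 0.256, 0.258 and 0.264 FPKM in zmccd8, against 1.91, 1.97 and 2.05 FPKM in WT. It fell by 1.24 (adjusted p = 0.00494) with the groups apart and a very small spread within each genotype.

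The size of these medians rested in part on single libraries. Without zmccd8 replicate 2 the median was −0.54 for extensins and proline-rich proteins, −0.54 for xyloglucan endotransglucosylases, −0.15 for expansins, −0.49 for dirigent proteins and −0.50 for class III peroxidases. Laccases had a median of −0.48 without WT replicate 2 and of −1.11 without WT replicate 3. Over the 6 fits without one library these medians, and that of the fasciclin-like proteins (−1.32 to −0.70), stayed negative.

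Core histones, which mark dividing cells, had a median of −0.76 over 66 genes with 0 called, against 0.02 under CT and 0.17 under WS. Their sums were 3103, 1999 and 3504 FPKM in zmccd8, against 4501, 4883 and 3909 FPKM in WT, and did not overlap. Histone H2B.4 (Zm00001eb148540, chromosome 3) had the largest difference, with 19.2, 3.31 and 15.9 FPKM in zmccd8, against 45.5, 61.5 and 39.0 FPKM in WT (log2 difference −2.10, adjusted p = 0.102). Other lists tied to cell division lay nearer to 0, with medians of −0.20 over 33 cyclins, −0.30 over 30 DNA replication proteins and 0.01 over 72 kinesins. None of these was called, with 2, 2 and 6 at an unadjusted p under 0.05. Without zmccd8 replicate 2 the median was −0.30 for core histones, −0.03 for cyclins, 0.11 for DNA replication proteins and 0.11 for kinesins, and without WT replicate 2 it was −0.08 for cyclins, −0.07 for DNA replication proteins and 0.16 for kinesins. Jasmonate synthesis enzymes had a median of −0.68 over 17 genes, all of them negative and 0 called, and BAHD acyltransferases, which decorate phenolics and waxes, a median of −0.64 over 64 genes, 63 of them negative and 0 called. An unadjusted p under 0.05 was seen for 21 histone genes, 11 jasmonate synthesis genes and 29 BAHD genes. Cytosolic ribosomal proteins, in contrast, had a median of −0.06 over 337 genes with 0 called and 34 at an unadjusted p under 0.05. For expansins, cyclins, DNA replication proteins, kinesins and ribosomal proteins, the share at this limit lay below that of all genes tested (7383 of 27530).

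Markers of single root tissues moved between the libraries as well. Genes with the root cap domain summed to 87.4, 11.1 and 99.1 FPKM in zmccd8, against 120.2, 64.4 and 174 FPKM in WT, so that zmccd8 replicate 2 and WT replicate 2 were the lowest of their groups and the groups overlapped. None of the 9 root cap genes tested was called. Casparian strip and CASP-like proteins, which mark the endodermis, summed to 465, 514 and 549 FPKM in zmccd8, against 678, 639 and 632 FPKM in WT, without overlap and with 0 of 36 called. SHORT-ROOT and SCARECROW genes, which pattern stele and ground tissue, summed to 13.5 to 21.9 FPKM in zmccd8 and 20.8 to 31.1 FPKM in WT, with 0 of 5 called. An unadjusted p under 0.05 was seen for 1 root cap, 11 Casparian strip or CASP-like and 1 SHORT-ROOT or SCARECROW gene. The part of tissue makeup in the wall, histone and lignin medians was not tested.

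**Figure D5:**
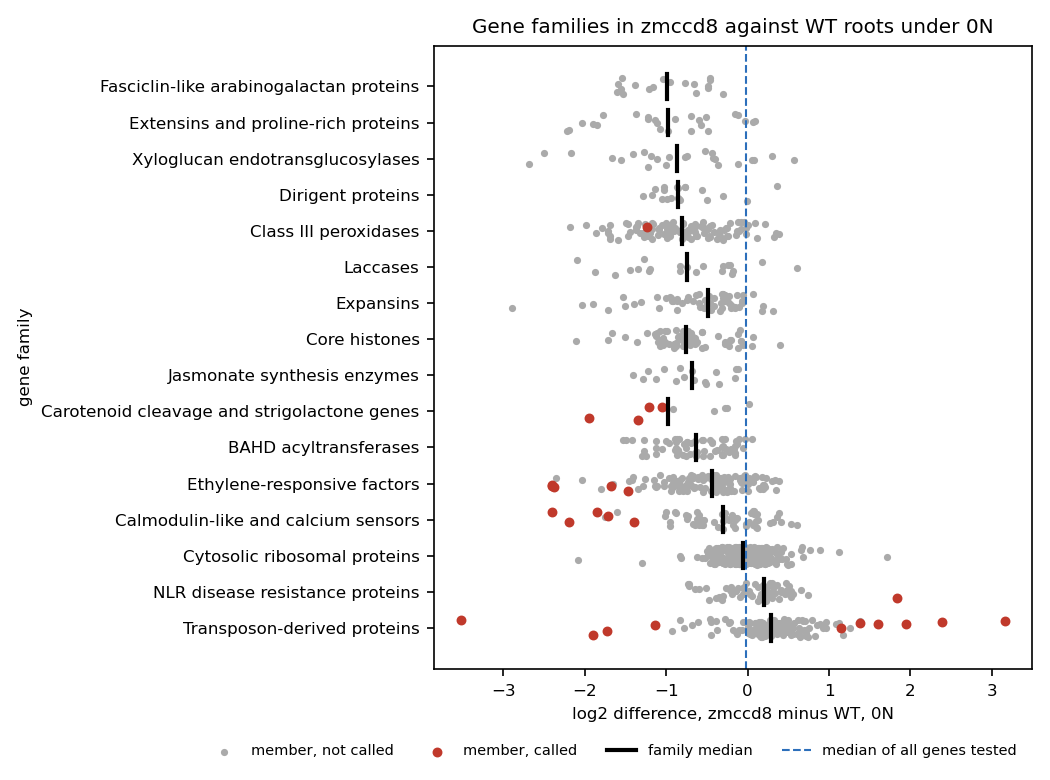
Log2 difference between zmccd8 and WT under 0N (horizontal axis) for the members of 16 gene families (rows), with called members in red, other members in grey, a black bar at the family median and a dashed line at the median of all genes tested, −0.01. The wall families at the top have medians from −0.996 to −0.49 with almost no red points, the red points of the ERFs and calcium sensors lie at their low ends, and transposon-derived proteins reach from −3.52 to 3.16.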

How the data were processed

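Root RNA of zmccd8 and WT plants was sequenced by the authors as strand-specific poly-A libraries, 3 for each genotype under 0N, CT and WS. Per the study's methods and the submitters' processing notes, reads were trimmed with fastp (Trimmomatic is listed too), mapped with HISAT2 2.0.5 to Zm-B73-REFERENCE-NAM-5.0 and counted with featureCounts, and new transcripts were assembled with StringTie. The authors deposited 1 table of FPKM values, used here as it stands. Reads were rebuilt from the FPKM steps, and 100% of the values came out whole within 0.1 of a read, giving 30104083 to 43429912 per library over all 18.

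Genes with at least 1 FPKM in 3 of the 18 libraries entered (27530 of 55661 features). For each condition log2(FPKM + 1) was compared between genotypes with limma 3.58.1 in R 4.3.3, two-sided, with a variance trend and Benjamini-Hochberg adjustment over all 27530. Genes with an adjusted p of at most 0.05 and an absolute log2 difference of at least 1 were called. The pseudocount of 1 makes log2 differences understate the change of low genes. Fold bounds against groups at 0 use a floor of 3 reads per library, which covers counting error only.

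The 111 families were found by Swiss-Prot name or Pfam domain and are described by counts and medians, with no set test. Genes were named by rule: ZmCCD8, the 6 highest and 6 lowest called genes with a protein name outside chromosome 3, the 4 highest and 4 lowest on it, the 2 highest and 2 lowest assembled transcripts, up to 4 called members of a family with at least 2 calls, and otherwise the member with the largest difference. Others were chosen after their values were seen and are mostly marked so. Without a mark in place are the uncalled genes of the SL list, which also fall outside the rule. The CXE15 and phosphoglycerate mutase groups were formed by name outside the 111 families. The members, families and tests were chosen with earlier results of these data known.

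Alternatives were a pseudocount of 0.1, no filter, a mean of at least 5 FPKM, all 18 libraries in 1 fit, median-of-ratios scaling, no trend, array weights, limma voom on the rebuilt reads, annotated genes only, leaving out chromosome 3, a replicate block, and leaving out each library. Leaving out CT and WS libraries was added after the data were seen. No other table was used.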

Additional observations from a re-analysis of the deposited data

How the results depend on the processing

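The count of calls in zmccd8 against WT under 0N, 433, depended on the libraries and on the model. Leaving out one library gave 171 to 984 calls in all, 88 to 349 higher, 83 to 635 lower, 93 to 244 on chromosome 3 and 78 to 740 outside it, of which 65 to 293 were higher and 13 to 447 lower. It gave 131 to 178 calls under CT, 152 to 233 under WS, 0 to 134 for the interaction of genotype with 0N (0 to 113 outside chromosome 3), and 19 to 74 families with a call, against 48. The highest counts under 0N came without zmccd8 replicate 3. Under CT the count was 131 without WT replicate 1 and 145 without WT replicate 2 or zmccd8 replicate 3, against 230, and under WS it was 152 without WT replicate 1, against 248.

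Fitting all 18 libraries together gave 1443 calls (484 higher, 959 lower, 302 on chromosome 3, 1141 outside it, of which 424 higher and 717 lower), 80 families, and 19 interaction calls, 15 of them outside chromosome 3. Array weights gave 1475 (477 higher, 998 lower, 310 on chromosome 3, 1165 outside it, of which 413 higher and 752 lower) and 84 families. Requiring a mean of at least 5 FPKM left 211 calls (56 higher, 155 lower, 93 on chromosome 3, 118 outside it, of which 37 higher), with fewer genes entered. Why the count fell was not tested. Annotated genes only gave 199 (48 higher, 151 lower, 118 on chromosome 3, 81 outside it, of which 23 higher and 58 lower). Without chromosome 3 there were 160 calls (114 higher, 46 lower) and 24 families, and with no filter the lower calls outside chromosome 3 were 65; the cause was not tested. The other alternatives, among them limma voom on the rebuilt reads with 419 calls, kept these counts within 1.5 times. Among the families given with 0 calls, voom called 1 BAHD acyltransferase and no member of the others.

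Same-numbered libraries did not deviate together (residual correlations −0.103, −0.293 and −0.388), so the numbers were not taken as pairs. A replicate block gave 131 calls (76 higher, 55 lower, 65 on chromosome 3, 66 outside it, of which 58 higher and 8 lower) and 11 families. No sample correlated best with its own number. Of 89 named genes that were called, 82 stayed called with a pseudocount of 0.1, 87 under median-of-ratios scaling, 79 under voom and 31 under the block, and none changed direction. The family median kept its sign under the alternatives in 88 of 111 families. Depth sets the floor of 3 reads per library, so folds of genes listed at 0 are bounds.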

Other observations

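A few genes outside the families above, chosen after their values were seen, were read in zmccd8 and nearly absent from WT under 0N. Phosphoenolpyruvate/phosphate translocator 3 (Zm00001eb057990, chromosome 1), a carrier of the plastid envelope, had 8.66, 9.65 and 4.02 FPKM in zmccd8 and was listed at 0 in all 3 WT libraries. ZINC INDUCED FACILITATOR-LIKE 1 (Zm00001eb406090, chromosome 10), a membrane carrier, had 17.6, 21.2 and 16.99 FPKM in zmccd8, against 0, 1.29 and 0 FPKM in WT. Its level in WT varied between libraries in the other conditions too, with 2.51 ± 2.74 FPKM under CT and 9.46 ± 10.1 FPKM under WS (SD, n = 3 each), and it was not called there. The neighbouring genes Zm00001eb432870 and Zm00001eb432880 on chromosome 10, both named for the RNA-binding oligouridylate-binding protein 1, rose by 1.503 (adjusted p = 0.0244) and 1.54 (adjusted p = 0.0210).

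Purple acid phosphatases, which release phosphate, split in direction. Purple acid phosphatase 2 (Zm00001eb151650, chromosome 3) had 19.8, 22.4 and 19.4 FPKM in zmccd8, against 8.51, 7.81 and 6.91 FPKM in WT, and rose by 1.301. An assembled transcript on chromosome 1 (start 160774383), which resembles an inactive purple acid phosphatase, had 6.85, 7.76 and 8.75 FPKM in zmccd8, against 23.1, 19.6 and 17.9 FPKM in WT, and fell by 1.27. The defensin-like gene CAL1 (Zm00001eb247810), whose rice relative handles cadmium, was also chosen after its values were seen. It had 0.247, 0.271 and 0.352 FPKM in zmccd8, against 5.13, 5.19 and 3.39 FPKM in WT. It fell by 2.09 (adjusted p = 0.00303) and is 1 of the 10 lower genes outside chromosome 3 that stayed called whichever library was left out.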
